A study of Rattus norvegicus with 12 samples.

Results

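The matrix metalloproteinases (MMP), the ADAM and ADAMTS proteases and their tissue inhibitors (TIMP) were followed in RNA from whole lungs of rats given the plant alkaloid monocrotaline (MCT), which injures lung vessels and is used to model pulmonary hypertension. Members were all genes with an Mmp, Adam, Adamts or Timp symbol and a number that had at least 10 counts in at least 4 of the 12 libraries. These were 46 of the 71 genes with such symbols in a table of 32883 genes, with 13 MMP, 13 ADAM, 16 ADAMTS and 4 TIMP genes, and 44 of them were tested. Mmp7 and Adam4 had too few counts for the test.

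Each of the 3 groups held 4 libraries: controls (Control), MCT with vehicle (MCT-vehicle), and MCT with ferrostatin-1 (MCT-Fer-1), a small molecule that blocks ferroptosis, cell death caused by the peroxidation of lipids. All rats are labelled wild type with a time of 25 days, and vehicle or ferrostatin-1 was given to the MCT rats for 10 days. No MCT dose, strain, age or sex is stated, nor any vehicle for the controls, so MCT and vehicle cannot be told apart against Control. The control samples are numbered in a range of their own in the descriptions, and whether they were handled apart was not tested. Whether each library is from its own rat is not said in the labels. The p-values then reflect only how these samples spread, which may in part be technical. In whole lung, fewer cells of a type and less RNA per cell cannot be told apart.

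MMPs are zinc proteases, secreted or held at the cell surface as inactive proenzymes, that cleave collagens, elastin and other matrix proteins. ADAMs sit in the membrane and mostly shed the outer parts of other membrane proteins, while ADAMTS proteases are secreted and cut proteoglycans, procollagens and von Willebrand factor. TIMPs bind the active sites of these enzymes, and the balance between both sides is a known feature of vessel wall remodelling in pulmonary hypertension.

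Library totals ran from 11601929 counts (MCT-Fer-1 1) to 70627239 counts (MCT-Fer-1 4). Levels are CPM, counts scaled to a fixed library size, after TMM scaling, and 3 counts, taken as the floor, stood for 0.04195 to 0.2586 CPM. The 6 lung markers, surfactant and club cell genes among them, were present in every library and summed to 29478 to 44152 CPM. Heart-muscle markers summed to 405 CPM in MCT-vehicle 2 and to 247 CPM in Control 4, against 16.5 to 77.0 CPM in the other libraries. These 2 libraries were therefore also left out together, as an alternative chosen after seeing the data. MCT-vehicle 2 also had the highest sum of airway cilia markers, at 184 CPM against 55.8 to 106 CPM in the other libraries. Fold changes below are on the log2 scale with their standard errors from edgeR's quasi-likelihood fit, with 4 libraries a group, and adjusted p-values are Benjamini-Hochberg values over 15257 genes. A gene rose or fell where its adjusted p was below 0.05. Values in each library are given in the order of replicates 1 to 4. Since gene lengths were not used, levels of different genes are not ranked against each other.

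In MCT-vehicle against Control, 16 of the 44 tested members rose and 0 fell. That is 36.4% of the members, where 10.3% of all tested genes rose and 8.28% fell. The genes that rose came from every family: 5 of 12 MMPs (Mmp2, Mmp14, Mmp19, Mmp12 and Mmp23), 5 of 12 ADAMs (Adam12, Adam15, Adam17, Adam11 and Adam9), 5 of 16 ADAMTS genes (Adamts4, Adamts2, Adamts12, Adamts7 and Adamts8) and 1 of 4 inhibitors (Timp1). In 7 of the 16 the rise was at least 2-fold. The 4 values of both groups did not overlap for 17 of 44 members (38.6%), against 21.5% of all genes tested. The median log2 fold change was 0.38 over the members and 0.02 over all genes. Without MCT-vehicle 2 and Control 4, 12 members were called, all higher, and 1675 of 15314 tested genes were called in either direction.

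**Figure D1:**
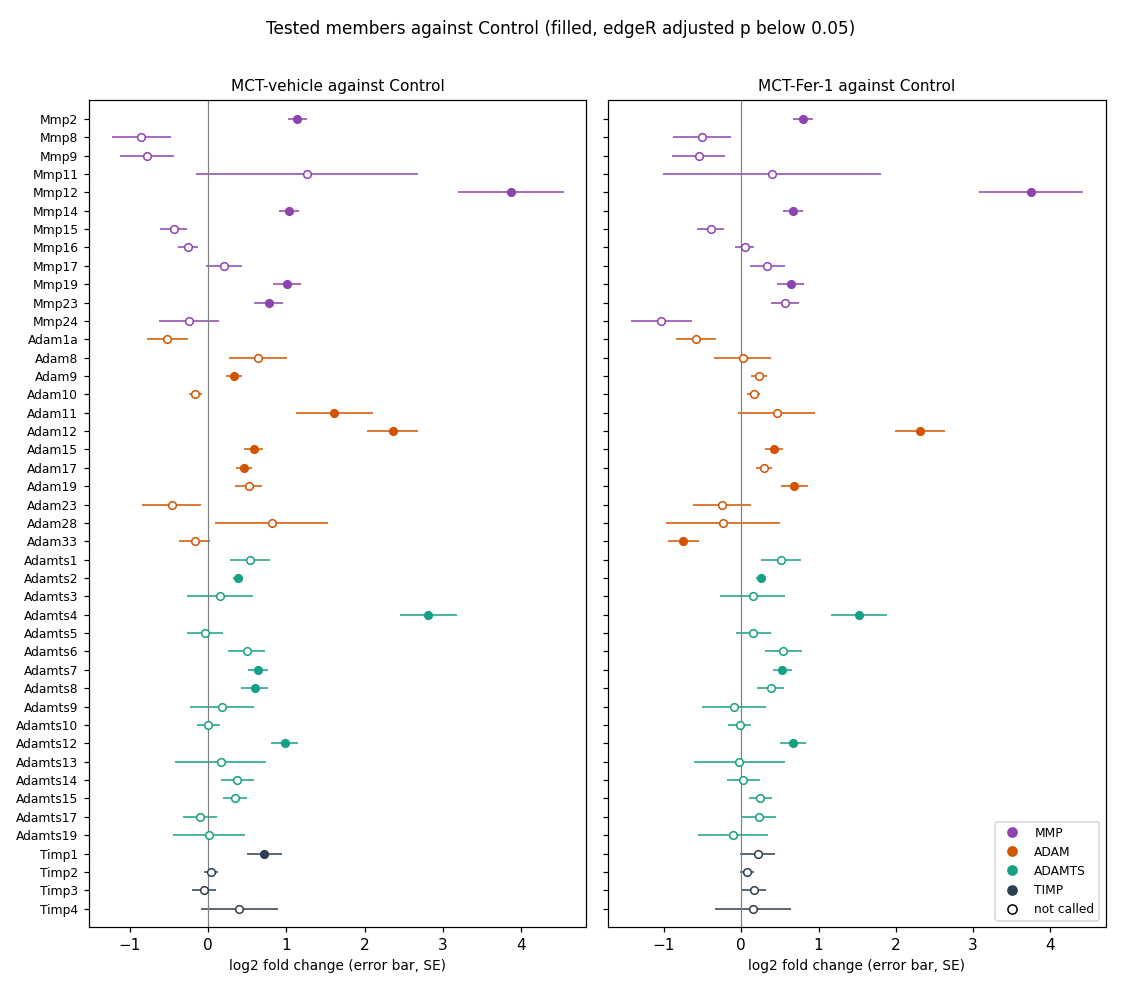
Log2 fold change with its SE (x axis) for the 44 tested members (y axis), coloured by family, for MCT-vehicle against Control (left) and MCT-Fer-1 against Control (right). Filled points passed the adjusted p threshold: 16 on the left, all to the right of 0, and 12 on the right, of which only Adam33 lies left of 0. Both panels use the same 4 Control libraries.

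Among the MMPs the smallest p-value belonged to Mmp2, gelatinase A, which degrades denatured collagen and basement membrane collagen. Mmp2 stood at 247, 188, 183 and 176 CPM in Control, 416, 493, 393 and 449 CPM in MCT-vehicle and 334, 405, 355 and 288 CPM in MCT-Fer-1. Every MCT library lay above every Control library, and the highest Control value was that of replicate 1. The rise in MCT-vehicle was 1.14 ± 0.13 (adjusted p = 0.000117), or 2.20-fold. Mmp14, the membrane-anchored protease that activates pro-Mmp2 at the cell surface and cuts fibrillar collagen, stood at 78.0, 88.3, 69.3 and 51.8 CPM in Control, 161, 149, 143 and 136 CPM in MCT-vehicle and 105, 117, 124 and 111 CPM in MCT-Fer-1. The 3 groups of Mmp14 values did not overlap, with Control lowest and MCT-vehicle highest. Its rise in MCT-vehicle was 1.04 ± 0.13 (adjusted p = 0.000271), or 2.05-fold.

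Mmp12, the macrophage elastase, showed the largest rise of the 16. Mmp12 stood at 5.22, 4.15, 6.14 and 2.78 CPM in Control, 23.0, 90.9, 84.1 and 69.7 CPM in MCT-vehicle and 22.2, 31.7, 142 and 49.0 CPM in MCT-Fer-1. All MCT values exceeded all Control values, but within each MCT group they were far apart, with replicate 1 lowest in both. The rise in MCT-vehicle was 3.87 ± 0.67 (adjusted p = 0.00326), or 14.6-fold. Of the 10 macrophage markers, 7 rose against Control with MCT and vehicle, 6 rose with MCT and ferrostatin-1, and 0 fell. Their summed level was 21930 to 24382 CPM in Control, 22145 to 35829 CPM in MCT-vehicle and 22646 to 29497 CPM in MCT-Fer-1, most of it lysozyme. Within MCT-vehicle, replicate 2 had the highest Mmp12 value and the lowest marker sum. Marco, a scavenger receptor of alveolar macrophages, was at 0 in all Control libraries and at 0.158 to 1.22 CPM in the MCT libraries. In MCT-vehicle 3, MCT-vehicle 4 and MCT-Fer-1 1 it was at the floor of 3 counts. The part of macrophages in the Mmp12 result was not tested.

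Mmp12 lies in a run of 10 neighbouring MMP genes with no other protein-coding gene between them in the RefSeq annotation of the rat assembly GRCr8. Only Mmp12, Mmp8 and Mmp7 of this run are members, and Mmp13, an interstitial collagenase of rodents, was just outside the rule with 10 counts in 3 libraries. The bases before the start sites of these genes are shown because Mmp12 rose while Mmp8, further along the run, did not pass the test. Adam19 is shown because it is the member outside the run with the TGANTCA motif. Capitals mark TGANTCA, the core site of the AP-1 factors (Fos and Jun), and TATAAA on either strand, from RefSeq on GRCr8, all genes being on the plus strand.
Mmp12, chr8:12866532-12866651: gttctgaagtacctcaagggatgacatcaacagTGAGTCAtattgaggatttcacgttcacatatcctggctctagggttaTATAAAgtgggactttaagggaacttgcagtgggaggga
Mmp13, chr8:12782709-12782828: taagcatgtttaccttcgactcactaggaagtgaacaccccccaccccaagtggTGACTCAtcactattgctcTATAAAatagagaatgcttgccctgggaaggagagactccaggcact
Mmp7, chr8:13132923-13133042: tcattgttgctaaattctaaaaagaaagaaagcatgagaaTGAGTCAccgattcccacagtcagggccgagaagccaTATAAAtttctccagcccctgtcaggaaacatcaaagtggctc
Mmp8, chr8:13008770-13008889: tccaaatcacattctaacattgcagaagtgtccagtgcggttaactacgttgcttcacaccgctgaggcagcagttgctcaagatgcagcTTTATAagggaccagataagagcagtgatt
Adam19, chr10:30992561-30992760: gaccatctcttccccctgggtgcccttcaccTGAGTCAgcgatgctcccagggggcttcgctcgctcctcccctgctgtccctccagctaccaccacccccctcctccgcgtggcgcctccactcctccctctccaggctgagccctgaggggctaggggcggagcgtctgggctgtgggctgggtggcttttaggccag
The AP-1 letters began 87 bases before the annotated start in Mmp12, 66 in Mmp13, 80 in Mmp7 and 169 in Adam19. The TATAAA letters began 39 bases before it in Mmp12, 47 in Mmp13 and 43 in Mmp7, with a further match at 140 in Mmp7 that is outside the stretch shown, and Mmp8 held the reverse form 30 bases before it. In the 250 bases before the start, TGANTCA, which reads the same on both strands, was in 3 of 31 members with a RefSeq window (9.68%) and in 6.36% of all 27457 windows. TATAAA was in 6 of the 31 (19.4%: Mmp7, Mmp8, Mmp12, Adamts1, Adamts7 and Adamts10) and in 13.1% of all windows. Of the 10 called members with a window, 1 held TGANTCA and 2 held TATAAA. These matches describe the letters only, and any bearing on the counts was not tested.

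Mmp13 was uneven between libraries of one group. It had 104 counts (4.44 CPM) in MCT-vehicle 1, 91 counts (6.79 CPM) in MCT-vehicle 3 and 276 counts (3.86 CPM) in MCT-Fer-1 4, and 0 to 7 counts in the other 9 libraries. Both MCT groups thus held libraries with and without it, and no Control library exceeded 0.385 CPM. Mmp7, matrilysin, stood at 0.110, 0.0554, 0.120 and 0 CPM in Control, 0.342, 0.862, 0.373 and 0.525 CPM in MCT-vehicle and 0.345, 0.230, 0.794 and 0.154 CPM in MCT-Fer-1. These were 0 to 2 counts in Control, under the floor of 3 counts in every library, and 4 to 21 counts in the MCT libraries. Mmp7 met the rule of 10 counts in 4 libraries through MCT libraries only, and it had too few counts for the main test. No test result is given for its difference.

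Mmp19, a secreted protease that cleaves basement membrane proteins, stood at 18.6, 21.3, 22.0 and 18.9 CPM in Control, 25.8, 44.6, 39.7 and 52.4 CPM in MCT-vehicle and 30.1, 34.0, 34.9 and 27.1 CPM in MCT-Fer-1. It lay above all Control values in every MCT library, with a rise in MCT-vehicle of 1.01 ± 0.18 (adjusted p = 0.00218). Mmp23, a protease anchored through its amino-terminal end, rose from a mean of 6.09 ± 1.16 CPM (SD, n = 4) in Control to 10.4 ± 2.02 CPM in MCT-vehicle and stood at 9.06 ± 1.48 CPM in MCT-Fer-1. The difference was 0.77 ± 0.18 (adjusted p = 0.0117) and the groups did not overlap.

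The 2 MMPs stored in neutrophil granules were not called. Mmp9, gelatinase B, stood at 7.59, 4.65, 6.02 and 4.68 CPM in Control, 3.55, 3.54, 4.40 and 1.89 CPM in MCT-vehicle and 2.07, 6.50, 4.39 and 2.67 CPM in MCT-Fer-1. Every MCT-vehicle value was below every Control value, and the difference of -0.78 ± 0.35 (adjusted p = 0.14) did not pass the threshold. Mmp8, neutrophil collagenase, stood at 28.6, 12.1, 19.8 and 24.1 CPM in Control, 13.6, 13.7, 11.9 and 7.62 CPM in MCT-vehicle and 13.1, 26.5, 13.4 and 6.70 CPM in MCT-Fer-1. The groups overlapped, and the difference was -0.85 ± 0.38 (adjusted p = 0.146). Neutrophil markers summed to 179 to 328 CPM in Control, 137 to 210 CPM in MCT-vehicle and 104 to 506 CPM in MCT-Fer-1, and 2 of 7 tested fell in MCT-vehicle. The highest sum, the highest Mmp8 and the highest Mmp9 value of the MCT-Fer-1 group were all in replicate 2. In Control they were all in replicate 1. In MCT-vehicle the sum and Mmp9 were highest in replicate 3, but Mmp8 was highest in replicate 2. Whether neutrophil content bears on Mmp8 and Mmp9 was not tested.

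**Figure D2:**
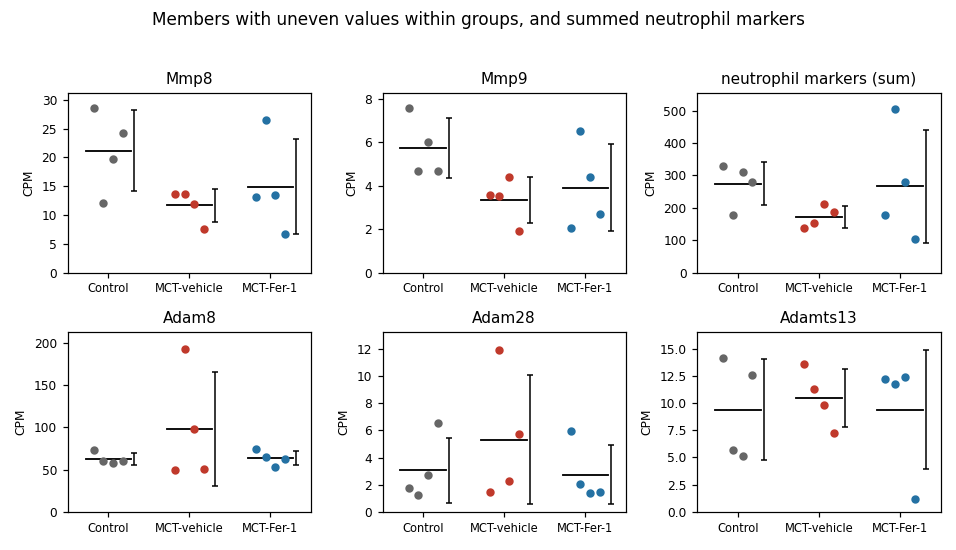
CPM (y axis, linear from 0) of 5 members and the summed CPM of 8 neutrophil markers in each library by group (x axis), with the group mean (line) and SD (bar). Mmp8, Mmp9 and the neutrophil sum are all highest within MCT-Fer-1 in replicate 2, Adam8 has 1 high library in MCT-vehicle (193 CPM), and Adamts13 has 1 low library in MCT-Fer-1 (1.17 CPM).

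The remaining MMPs were not called. Among the membrane-type members, which act at the cell surface, Mmp15 differed by -0.44 ± 0.17 (adjusted p = 0.0936), Mmp16 by -0.26 ± 0.13 (adjusted p = 0.175), Mmp17 by 0.20 ± 0.23 (adjusted p = 0.585) and Mmp24 by -0.24 ± 0.38 (adjusted p = 0.7). Mmp15 passed the threshold, as lower, without MCT-vehicle 1 (-0.65, adjusted p = 0.00487, with 0.00487 to 0.329 over the 21 alternatives), the library with its highest MCT-vehicle value (179 CPM). Mmp11, stromelysin 3, stood between 0 and 5.82 CPM with no group apart (1.27 ± 1.42, adjusted p = 0.578).

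Of the sheddases, Adam12, a protease of mesenchymal cells that cleaves growth factor binding proteins, changed most. Adam12 stood at 4.89, 3.05, 2.77 and 1.01 CPM in Control, 12.1, 16.4, 14.0 and 17.9 CPM in MCT-vehicle and 16.7, 15.3, 15.1 and 11.7 CPM in MCT-Fer-1. The lowest MCT value was more than the highest Control value, and both MCT groups covered similar ranges. The rise in MCT-vehicle was 2.36 ± 0.32 (adjusted p = 0.000506), or 5.13-fold. Adam15, which also carries an integrin-binding site, stood at 125, 119, 123 and 127 CPM in Control, 178, 207, 149.5 and 203 CPM in MCT-vehicle and 203, 144, 172 and 146 CPM in MCT-Fer-1. Control values were tight and all MCT values were above them, at 0.58 ± 0.12 (adjusted p = 0.00508) in MCT-vehicle.

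Adam17, the sheddase of tumour necrosis factor and of its receptors, stood at 214, 224, 231 and 206 CPM in Control, 359.5, 281, 299 and 260.4 CPM in MCT-vehicle and 265, 302, 264 and 242 CPM in MCT-Fer-1. No MCT library was as low as the highest Control library. The rise in MCT-vehicle was 0.46 ± 0.10 (adjusted p = 0.00665), or 1.37-fold. Adam10, the sheddase of Notch receptors and cadherins, stood at 132, 153, 159 and 153 CPM in Control, 117, 134, 155 and 126 CPM in MCT-vehicle and 159.9, 164, 179 and 163 CPM in MCT-Fer-1. MCT-vehicle overlapped Control, with a difference of -0.16 ± 0.09 (adjusted p = 0.23). The MCT-Fer-1 values lay above both groups, but only just above Control, at 159.9 CPM against 158.7 CPM. Their difference from Control of 0.16 ± 0.09 (edgeR adjusted p = 0.289) was not called either. Adam9, a widely expressed sheddase, rose by 0.33 ± 0.10 (adjusted p = 0.043) with overlapping groups, and this call was kept in 8 of 21 alternative settings. Adam11, a neural ADAM without a catalytic zinc site, stood at 0.605, 0.831, 0.120 and 0.355 CPM in Control, 0.940, 2.31, 1.64 and 1.05 CPM in MCT-vehicle and 0.603, 0.461, 0.529 and 0.979 CPM in MCT-Fer-1. It had 2 to 70 counts per library and rose by 1.61 ± 0.49 (adjusted p = 0.0378), a call kept in 11 of the 21 settings. Its highest MCT-vehicle value was in replicate 2, and without MCT-vehicle 2 and Control 4 together its edgeR adjusted p was 0.209.

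Adam8, a leukocyte sheddase, stood at 73.2, 60.2, 57.5 and 60.5 CPM in Control, 49.5, 193, 98.3 and 50.2 CPM in MCT-vehicle and 74.0, 65.1, 53.3 and 62.6 CPM in MCT-Fer-1. One MCT-vehicle library, replicate 2, was far above the rest, and replicates 1 and 4 of that group were below all Control values. The difference was 0.64 ± 0.37 (adjusted p = 0.259). MCT-vehicle 2 was also the library with the highest heart-muscle and airway cilia sums, and any bearing of this on Adam8 was not tested. Adam33, expressed by airway fibroblasts and smooth muscle, stood at 37.3, 22.6, 20.8 and 27.9 CPM in Control, 31.0, 18.5, 20.1 and 26.8 CPM in MCT-vehicle and 16.4, 15.1, 18.5 and 14.8 CPM in MCT-Fer-1. MCT-vehicle overlapped Control (-0.17 ± 0.19, adjusted p = 0.582), and MCT-Fer-1 was below every Control value. Adam19, which sheds neuregulin and like growth factors, differed in MCT-vehicle by 0.52 ± 0.17 (adjusted p = 0.0544) and was called as higher in 6 of the 21 alternatives, DESeq2 among them, with adjusted p-values of 0.0228 to 0.128 over the 21. Adam1a, Adam23 and Adam28, with group means of 1.22 to 5.32 CPM, had adjusted p-values of 0.185, 0.426 and 0.473 (edgeR). Adam4 stood at 0.172 to 0.599 CPM in all groups.

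Adamts4, aggrecanase 1, which cuts aggrecan and versican, had the smallest p-value of the ADAMTS genes. Adamts4 stood at 3.46, 1.55, 2.17 and 1.54 CPM in Control, 14.7, 23.5, 8.65 and 14.4 CPM in MCT-vehicle and 9.48, 6.73, 4.46 and 4.88 CPM in MCT-Fer-1. All MCT-vehicle values were above all Control values, and so were all MCT-Fer-1 values, while the MCT groups overlapped only through MCT-vehicle 3 and MCT-Fer-1 1. The rise in MCT-vehicle was 2.81 ± 0.36 (adjusted p = 0.000357), or 7.02-fold.

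Among the procollagen N-proteinases, which trim fibrillar procollagens, Adamts2 stood at 82.2, 76.8, 74.7 and 78.7 CPM in Control, 108, 98.1, 92.2 and 108 CPM in MCT-vehicle and 91.8, 89.2, 98.6 and 92.5 CPM in MCT-Fer-1. The change was small, but each group was narrow and neither MCT group overlapped Control, with 0.38 ± 0.07 (adjusted p = 0.00187) in MCT-vehicle. Adamts14 differed by 0.37 ± 0.21 (adjusted p = 0.243, and 0.0468 to 0.544 over the 21 alternatives, the lowest without MCT-vehicle 3) and Adamts3 by 0.16 ± 0.42 (adjusted p = 0.832). The pair that cleaves cartilage oligomeric matrix protein rose together. Adamts12 stood at 32.2, 27.4, 32.9 and 27.6 CPM in Control, 58.7, 58.0, 44.3 and 74.9 CPM in MCT-vehicle and 58.3, 37.1, 42.4 and 53.9 CPM in MCT-Fer-1. No MCT value was as low as any Control value, with 0.98 ± 0.17 (adjusted p = 0.00195) in MCT-vehicle. Adamts7 stood at 9.40, 8.31, 8.31 and 7.58 CPM in Control, 11.7, 12.7, 11.6 and 16.3 CPM in MCT-vehicle and 12.3, 11.8, 13.0 and 11.6 CPM in MCT-Fer-1. It too lay above all Control values in every MCT library, with 0.64 ± 0.13 (adjusted p = 0.00443) in MCT-vehicle.

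Among the other proteoglycan-cleaving members, Adamts8 rose from a mean of 30.4 ± 1.94 CPM (SD, n = 4) in Control to 45.8 ± 14.3 CPM in MCT-vehicle and stood at 39.6 ± 5.69 CPM in MCT-Fer-1. Its change of 0.59 ± 0.18 (adjusted p = 0.0359) was kept in 12 of the 21 settings. Adamts1, a versican protease also named METH1, stood at 147, 84.1, 90.2 and 80.1 CPM in Control, 159.8, 198, 101 and 121 CPM in MCT-vehicle and 147, 158, 175 and 94.6 CPM in MCT-Fer-1. Control 1 was within the range of the MCT libraries and the other 3 Control libraries were below all of them. The difference was 0.53 ± 0.26 (adjusted p = 0.177), and without Control 1 it passed the threshold (adjusted p = 0.0485 by edgeR, with 0.0485 to 0.608 over the 21 alternatives). Adamts5, Adamts9 and Adamts15, further versican or aggrecan proteases, were not called, with adjusted p-values of 0.925, 0.806 and 0.136 (edgeR). Adamts6, Adamts10, Adamts17 and Adamts19 were not called either, at 0.18, 0.996, 0.784 and 0.986.

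Adamts13, the protease that cuts von Willebrand factor, stood at 14.1, 5.70, 5.12 and 12.5 CPM in Control, 13.5, 11.2, 9.84 and 7.25 CPM in MCT-vehicle and 12.2, 11.8, 12.4 and 1.17 CPM in MCT-Fer-1. Values differed within every group, and MCT-Fer-1 4, the deepest library, was lowest of all with 84 counts. The difference in MCT-vehicle was 0.16 ± 0.58 (adjusted p = 0.878). Its gene overlaps Cacfd1, which stood at 16.4 to 21.3 CPM overall and at 19.8 CPM in MCT-Fer-1 4. The strand setting of the counting is not given in the sources used here.

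Only Timp1 of the inhibitors was called. Timp1, an inducible secreted inhibitor, stood at 60.4, 60.0, 65.0 and 54.9 CPM in Control, 87.2, 86.6, 72.2 and 149 CPM in MCT-vehicle and 63.5, 93.0, 72.7 and 49.5 CPM in MCT-Fer-1. MCT-vehicle was above all Control values, with replicate 4 far above the other 3, while MCT-Fer-1 ranged from below to above the Control values. The rise in MCT-vehicle was 0.72 ± 0.22 (adjusted p = 0.0436), or 1.65-fold, and was kept in 9 of the 21 settings. Timp2, which inhibits and also helps Mmp14 to activate pro-Mmp2, stood at 367, 439, 399 and 429 CPM in Control, 400.4, 364, 472 and 436 CPM in MCT-vehicle and 441, 414, 456 and 411 CPM in MCT-Fer-1. The 3 groups covered overlapping ranges, with 0.03 ± 0.09 (adjusted p = 0.831) in MCT-vehicle.

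Timp3, the matrix-bound inhibitor that also blocks Adam17 and the aggrecanases, stood at 755, 1048, 1072 and 1051 CPM in Control, 894, 931, 964 and 999 CPM in MCT-vehicle and 1439, 821, 1025 and 1131 CPM in MCT-Fer-1. The lowest value was Control 1 and the highest MCT-Fer-1 1, and the difference in MCT-vehicle was -0.05 ± 0.15 (adjusted p = 0.848). Timp4 stood at 1.26, 1.11, 2.11 and 2.55 CPM in Control, 0.983, 3.72, 3.28 and 1.31 CPM in MCT-vehicle and 2.50, 2.30, 0.719 and 2.32 CPM in MCT-Fer-1. Its groups overlapped (0.40 ± 0.49, adjusted p = 0.616). In RefSeq on GRCr8 the 4 TIMP genes overlap Syn1, Cep295nl, Syn3 and Syn2, each of which was at or below 1.84 CPM in every library.

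**Figure D3:**
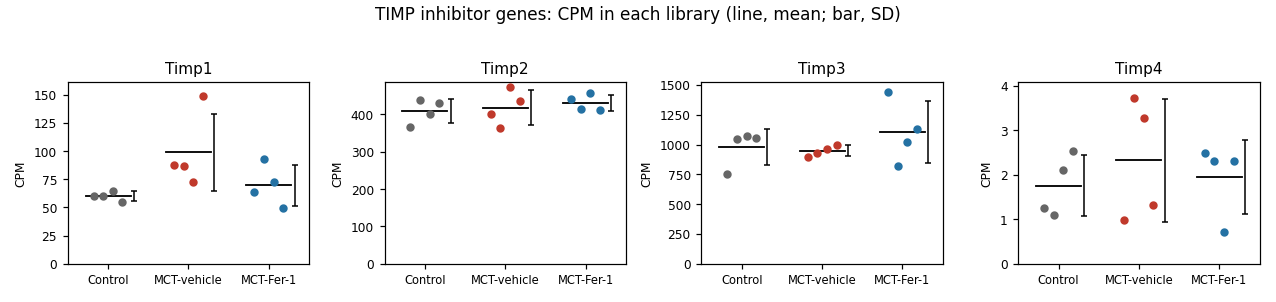
CPM (y axis, linear from 0) of the 4 TIMP genes in each library by group (x axis), with the group mean (line) and SD (bar). Timp1 has 4 MCT-vehicle values (72.2 to 149 CPM) above the 4 Control values (54.9 to 65.0 CPM), and the groups overlap for Timp2, Timp3 and Timp4.

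In MCT-Fer-1 against MCT-vehicle, which asks what ferrostatin-1 did in MCT lungs, edgeR called 0 of the 44 members and 0% of all genes. The MCT-vehicle libraries enter both this comparison and the one with Control. The smallest adjusted p was 0.206 among the members (Adamts4) and 0.114 over all genes. At an unadjusted p below 0.05 there were 8 members (18.2%) against 12% of all genes: Adam10 and Mmp16 had higher values, and Adamts4, Adam33, Mmp14, Mmp2, Adam11 and Timp1 lower ones, none of them called. The median log2 fold change was -0.12 over the members and -0.01 over all genes. The 4 values of both groups did not overlap for 2 members (4.55%), against 6.1% of all genes tested. DESeq2 called 1 member, Adamts4, and 1.67% of the genes it tested, and limma voom with quality weights called 0 members.

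For Adamts4 the log2 fold change was -1.29 ± 0.34 (adjusted p = 0.206) by edgeR, with a DESeq2 adjusted p of 0.0164 and a range of 0.0164 to 0.418 over the 21 alternatives. The MCT-Fer-1 mean of 6.39 ± 2.28 CPM (SD, n = 4) lay between the other groups. Mmp14 was 1 of the 2 members without overlap, its highest MCT-Fer-1 value being 124 CPM and its lowest MCT-vehicle value 136 CPM, and its difference was -0.37 ± 0.13 (adjusted p = 0.3). Mmp2 differed by -0.34 ± 0.12 (adjusted p = 0.317) and overlapped through MCT-Fer-1 2. Adam10, the other member without overlap, lay higher in MCT-Fer-1 by 0.32 ± 0.09 (adjusted p = 0.212), with a lowest value of 159.9 CPM against a highest MCT-vehicle value of 155 CPM.

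Adam33 differed by -0.58 ± 0.20 (adjusted p = 0.29), Adam11 by -1.15 ± 0.47 (adjusted p = 0.356) and Timp1 by -0.51 ± 0.22 (adjusted p = 0.399). Each of these 3 overlapped between the MCT groups. For Mmp12 and Adam12, with rises against Control among the largest, the differences were -0.12 ± 0.57 (adjusted p = 0.953) and -0.05 ± 0.30 (adjusted p = 0.964). Mmp12 spread from 22.2 to 142 CPM within MCT-Fer-1, and 2 standard errors around its estimate include a 2-fold difference in either direction.

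**Figure D4:**
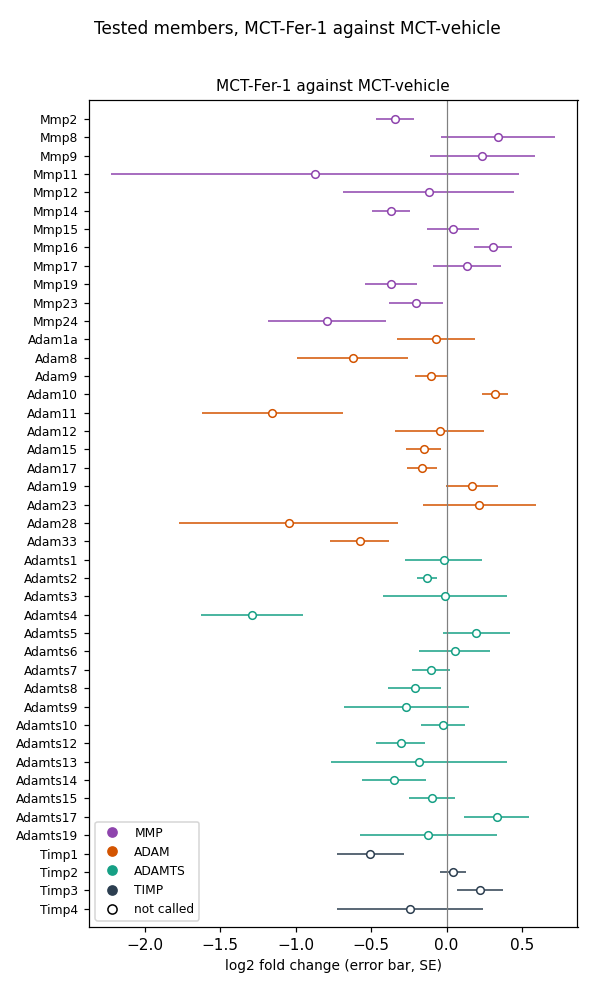
Log2 fold change with its SE (x axis) of the 44 tested members (y axis) for MCT-Fer-1 against MCT-vehicle, coloured by family. All points are open, since 0 passed the adjusted p threshold, and Adamts4 lies at -1.29 and Adam10 at 0.32.

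Against Control, MCT-Fer-1 had 12 called members. These were 11 that rose (Mmp2, Mmp14, Mmp12, Mmp19, Adam12, Adam15, Adam19, Adamts2, Adamts4, Adamts7 and Adamts12) and 1 that fell (Adam33). That is 25% up and 2.27% down, against 6.67% and 4.12% of all genes. The median log2 fold change was 0.22 over the members and 0.00 over all genes. This comparison shares its Control libraries with that of MCT-vehicle, so the values are set side by side only. The count was 4 without Control 4, 7 without Control 2, 7 without MCT-Fer-1 3 and 6 without MCT-vehicle 2 and Control 4. Calls over all genes dropped in the same settings, from 1646 in the main fit to 978, 1124, 995 and 978. Mmp2, Mmp14, Mmp12 and Adam12 were called in all 21 settings.

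Mmp2 was at 0.80 ± 0.13 (adjusted p = 0.0016) against 1.14 ± 0.13 in MCT-vehicle, and Mmp14 at 0.67 ± 0.13 (adjusted p = 0.00594) against 1.04 ± 0.13. Mmp12 was at 3.75 ± 0.67 (adjusted p = 0.00579) and Adam12 at 2.31 ± 0.32 (adjusted p = 0.000755), next to 3.87 ± 0.67 and 2.36 ± 0.32. Adamts4 was at 1.52 ± 0.36 (adjusted p = 0.0186) against 2.81 ± 0.36. Set side by side, the gelatinase, its activator and the aggrecanase had smaller fold changes in MCT-Fer-1, and the elastase and Adam12 near equal ones, but no difference between the MCT groups passed edgeR's threshold.

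Mmp19 (0.64 ± 0.17, adjusted p = 0.0348), Adamts12 (0.67 ± 0.17, adjusted p = 0.0225), Adamts7 (0.53 ± 0.13, adjusted p = 0.0186), Adam15 (0.43 ± 0.12, adjusted p = 0.0359) and Adamts2 (0.25 ± 0.06, adjusted p = 0.0263) also rose. Adam19 rose by 0.69 ± 0.17 (adjusted p = 0.0251), with no MCT-Fer-1 value as low as any Control value, and Adam33 fell by 0.75 ± 0.20 (adjusted p = 0.0301). Over the 21 settings these calls were kept in 13 for Mmp19 and Adam15, 15 for Adamts2 and Adam33, 16 for Adamts12 and Adam19, 18 for Adamts7 and 19 for Adamts4. Those called in MCT-vehicle only were Adam11, Adam17, Adam9, Adamts8, Mmp23 and Timp1. Their values in MCT-Fer-1 were 0.46 ± 0.50, 0.30 ± 0.10, 0.23 ± 0.10, 0.38 ± 0.18, 0.57 ± 0.18 and 0.21 ± 0.22. Of these, Adam17 was called there in 4, Mmp23 in 2 and Adamts8 in 1 of the 21 alternatives. The direct comparison of the MCT groups called none of the 6. Mmp15 (-0.40 ± 0.17, adjusted p = 0.166) and Mmp24 (-1.03 ± 0.39, adjusted p = 0.117) were not called in MCT-Fer-1 against Control by the main fit. Each was called there as lower in 2 of the 21 alternatives. All MCT-Fer-1 values of Mmp15 were below all Control values, and those of Mmp24 overlapped Control.

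**Figure D5:**
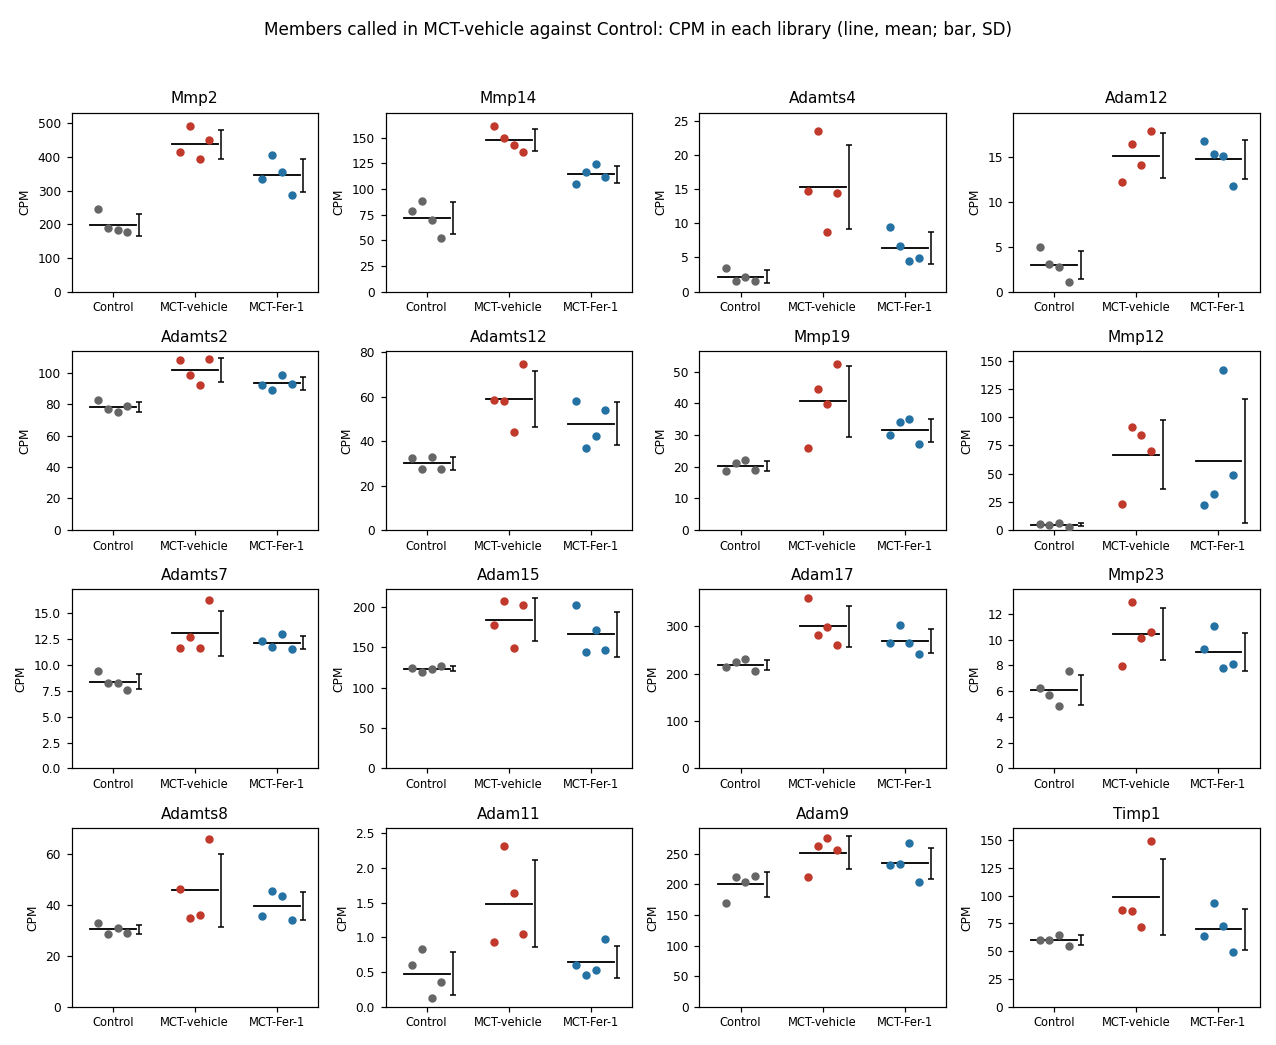
CPM (y axis, linear from 0) in each library by group (x axis) for the 16 members called in MCT-vehicle against Control, ordered by p, with the group mean (line) and SD (bar). The MCT-vehicle points lie above all Control points in 15 panels, the exception being Adam9, and the MCT-Fer-1 points of Mmp14 lie between those of both other groups.

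The genes around these proteases were described from lists of textbook roles, with no test of a list. Each list is to be set beside all tested genes. Of those, 10.3% rose and 8.28% fell in MCT-vehicle against Control, and 6.67% and 4.12% in MCT-Fer-1 against Control. Where a list is near these shares, the genes named are single results and not a result about the list. Of 18 tested matrix proteins that the proteases cut, 13 rose in MCT-vehicle and 0 fell, with a median log2 fold change of 0.59, against 0.02 over all genes. Eln, the elastin that Mmp12 degrades, went from 829.9 ± 100.3 to 1879 ± 189.6 CPM (1.18 ± 0.14, adjusted p = 0.000165). Fn1, fibronectin, rose by 1.71 ± 0.21 (adjusted p = 0.00026), Bgn, biglycan, by 0.84 ± 0.11 (adjusted p = 0.000418) and Col5a1, a chain of a minor fibrillar collagen, by 0.73 ± 0.10 (adjusted p = 0.000506). In MCT-Fer-1 against Control, 8 of the 18 rose and 0 fell.

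Of 17 tested ADAMTS-like proteins and ADAMTS substrates, 7 rose in MCT-vehicle and 0 fell, with a median of 0.53, and 4 rose in MCT-Fer-1. Efemp2, an elastic fibre protein, rose by 0.80 ± 0.09 (adjusted p = 0.000177), Col1a1 by 1.08 ± 0.15 (adjusted p = 0.000614), Col3a1 by 0.87 ± 0.13 (adjusted p = 0.000735) and Fbn1, fibrillin-1, by 0.74 ± 0.11 (adjusted p = 0.00092). Vcan, versican, the substrate of Adamts4 and Adamts1, rose by 1.04 ± 0.26 (adjusted p = 0.0152). Against Control, fibroblast and pericyte markers rose in 3 of 7 with vehicle and in 0 of 7 with ferrostatin-1. In MCT-Fer-1 against MCT-vehicle, 0 of the 7 were called. Their summed levels were 777 to 1093 CPM in Control, 1161 to 1942 CPM in MCT-vehicle and 953 to 1101 CPM in MCT-Fer-1. Col1a1, counted above as a substrate, is 1 of these markers. Summed over the other 6 the levels overlapped, at 457 to 704 CPM in Control, 450.1 to 852 CPM in MCT-vehicle and 475 to 564 CPM in MCT-Fer-1, and the highest was MCT-vehicle 2, where Dcn, decorin, was at 323 CPM. Their part in the results for Mmp2, Mmp14 and the ADAMTS genes was not tested.

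Of 14 tested regulators outside the families, with a median of 0.07, 3 rose and 0 fell in MCT-vehicle: Lrp1, the receptor that clears proteases (0.60 ± 0.11, adjusted p = 0.0031), Tfpi2, a serine protease inhibitor (1.56 ± 0.48, adjusted p = 0.0401), and Pcsk5, a proprotein convertase (0.40 ± 0.13, adjusted p = 0.0443). Reck, a membrane-anchored MMP inhibitor, had -0.29 ± 0.11 (adjusted p = 0.0881). In MCT-Fer-1, 1 of the 14 rose. Of 10 tested partners that carry Adam10 and Adam17 to the surface, Frmd8 rose (0.28 ± 0.09, adjusted p = 0.0395) and Tspan15 (-0.35 ± 0.09, adjusted p = 0.0186) and Rhbdf1 (-0.37 ± 0.11, adjusted p = 0.0315) fell in MCT-vehicle, with a median of -0.04. In MCT-Fer-1, 1 of the 10 fell and 0 rose.

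Of 21 tested proteins shed by Adam10 or Adam17, 3 rose and 3 fell in MCT-vehicle, where 10.3% of all genes rose and 8.28% fell. The median was -0.03, and the genes below are not read as a result about the list. Those that rose were Trem2, a receptor of lipid-laden macrophages (2.72 ± 0.45, adjusted p = 0.00217), Vcam1, a leukocyte adhesion molecule (0.87 ± 0.19, adjusted p = 0.00734), and Tnfrsf1a, a tumour necrosis factor receptor (0.40 ± 0.09, adjusted p = 0.0106). Those that fell were Cdh5, the endothelial cadherin (-0.54 ± 0.11, adjusted p = 0.00497), Notch1 (-0.63 ± 0.13, adjusted p = 0.00578) and the chemokine Cx3cl1 (-0.55 ± 0.17, adjusted p = 0.0413). In MCT-Fer-1, 1 rose and 3 fell. Endothelial markers, Cdh5 among them, fell in 3 of 7 and rose in 1 of 7 in MCT-vehicle, with sums of 3199 to 3472 CPM in Control and 2182 to 2642 CPM in MCT-vehicle, and their part was not tested.

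Of 19 tested cathepsins and other matrix-degrading enzymes, 9 rose and 2 fell in MCT-vehicle (median 0.33), and 8 rose and 1 fell in MCT-Fer-1. Cma1, mast cell chymase, which can activate pro-MMPs, rose by 5.21 ± 0.46 (adjusted p = 5.54e-05) from a Control mean of 3.25 ± 1.37 CPM. Ctss, an elastin-cleaving cathepsin, rose by 1.15 ± 0.17 (adjusted p = 0.000701) and Ctsd by 1.32 ± 0.21 (adjusted p = 0.00121). Elane, neutrophil elastase, fell by 2.97 ± 0.53 (adjusted p = 0.00239) from 1.30 ± 0.463 CPM to 0.177 ± 0.140 CPM. The latter is at the floor of 0.1282 to 0.2237 CPM in the MCT-vehicle libraries, so the size of the fall is uncertain. All 5 tested mast cell markers, Cma1 among them, rose in both MCT groups, with sums of 33.3 to 55.5 CPM in Control and 244 to 793 CPM in the MCT libraries. Of the macrophage markers, 7 of 10 rose in MCT-vehicle and 0 fell. Of the 7 tested neutrophil markers, 2 fell, the rest were not called, and the sums of the neutrophil markers overlapped between MCT-vehicle and Control. The part of these cells was not tested.

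In the plasmin system, 3 of 10 rose and 1 fell in MCT-vehicle (median 0.43), and 2 rose and 1 fell in MCT-Fer-1. Serpine2, a serine protease inhibitor, rose by 1.79 ± 0.21 (adjusted p = 0.000188), Plgrkt, a plasminogen receptor, rose by 0.53 ± 0.12 (adjusted p = 0.0092), and Serpina1, the elastase inhibitor alpha-1-antitrypsin, fell by 2.44 ± 0.32 (adjusted p = 0.000467). Of 4 tested genes among astacins, pappalysins and their enhancers, 0 were called against Control, with a median of -0.40 in MCT-vehicle and 3 at an unadjusted p below 0.05. In MCT-Fer-1 against MCT-vehicle, edgeR called 0 genes in all 8 lists. At an unadjusted p below 0.05 there were 20 of 113 tested genes (17.7%), all 20 with lower values, against 12% of all genes in either direction. The share of all genes with lower values is not given here. Several lists held many genes that rose in MCT-vehicle, a group that enters both comparisons.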

How the data were processed

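RNA of 12 whole rat lung samples was sequenced. The authors deposited unnormalized counts for each gene, named as expression values per the file headers. Its columns of group means made by the authors were not used. Which aligner, counter, strand setting and genome build they used is not given in the sources used here. Titles gave each sample's group and replicate number.

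Genes were kept by filterByExpr (15257 genes with 99.94% of the counts; 17626 left out). After TMM scaling, edgeR 4.0.16's robust quasi-likelihood method (R 4.3.3) fitted the 3 groups together (12 libraries, 9 residual degrees of freedom), with Benjamini-Hochberg adjustment over all tested genes. The standard error is the log2 fold change divided by the square root of F. DESeq2 1.42.0 and limma 3.58.1 served as alternatives. No pair of libraries of one group agreed within sampling noise (lowest chi-square per degree of freedom 10.34). Floors cover counting error only.

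Members and gene lists were chosen with earlier results of these data known. Values per library are given for the 10 members with the smallest p in MCT-vehicle against Control, the 6 in MCT-Fer-1 against MCT-vehicle, and Mmp2, Mmp9, Mmp12, Mmp14, Adam8, Adam10, Adam17, Adamts1, Adamts13 and the TIMPs, and of each list up to 4 called genes with the smallest p, of which not every one is given. Mmp7, Mmp8, Mmp13, Mmp15, Vcan, Reck, Tnfrsf1a and Cx3cl1 were added after their values were seen. Protein sequences were not analysed here. Some results are not reported here.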

Additional observations from a re-analysis of the deposited data

Results flagged for a closer look

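In 138 groups of 4 libraries, 10 had a single library far from the other 3, where chance alone gives 6.9 at 1 in 20. Control 1 stood apart in 3 members: Adamts1 at 147 CPM (others 80.1 to 90.2 CPM), Mmp2 at 247 CPM (others 176 to 188 CPM) and Timp3 at 755 CPM, below the others. Adamts15 was at 87.3 CPM in Control 3, with 113 to 116 CPM in the other Control libraries. Mmp11 was at 1.83 CPM in Control 2 and at 5.82 CPM in MCT-vehicle 3, and the other libraries of those groups were at or below 0.427 CPM. Adam28 was at 5.95 CPM in MCT-Fer-1 1 (others 1.40 to 2.07 CPM), and Timp4 at 0.719 CPM in MCT-Fer-1 3 (others 2.30 to 2.50 CPM). In MCT-Fer-1 4, Adamts13 was at 1.17 CPM (others 11.8 to 12.4 CPM) and Adamts14 at 12.5 CPM (others 14.7 to 15.1 CPM).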

How the results depend on the processing

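For MCT-vehicle against Control, 12 to 17 members were called over 21 alternatives, and 12 of the 16 (all but Adam9, Timp1, Adam11 and Adamts8) were called in every one. Calls over all genes ranged from 1675 to 3515 over the same alternatives. Leaving out each library in turn gave 12 to 16 members. For MCT-Fer-1 against Control the range was 4 to 14 when each library was left out, and 4 of the 12 were called in every alternative. It was 6 without MCT-vehicle 2 and Control 4 together, 4 without Control 4, 7 without Control 2 and 7 without MCT-Fer-1 3. Calls over all genes dropped as well, from 1646 to 978, 978, 1124 and 995 in these settings. The cause was not tested. For MCT-Fer-1 against MCT-vehicle, DESeq2 called 1 member and every other alternative 0. No called member changed sign. Fits that leave out a library assume that the smaller group varies like the others. Same-numbered libraries did not deviate together (r = -0.0858 to 0.122, with 1 of 12 pairs over 0.1 and 4 libraries closest to their own number), so the numbers were not taken to pair samples, and with the replicate block the counts were 14, 0 and 11. Among the members, the floor of up to 0.2586 CPM limits Mmp7, Mmp11, Adam4 and Adam11 most, and it also limits Elane.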
